A study of Caenorhabditis elegans with 21 samples.

Results

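Transcripts of the flp and nlp neuropeptide genes were followed in whole Caenorhabditis elegans adults of 7 genotypes, with 3 poly(A) RNA libraries of each. The members are all loci of the deposited count table whose gene names include flp or nlp followed by a hyphen and a number. A locus is a transcribed unit that can hold more than 1 gene. The rule found 74 of 33886 loci, 31 flp loci and 43 nlp loci, which together carry 30 flp and 44 nlp gene names. The 7 genotypes comprised the wild-type strain N2, the single mutant daf-2(e1370) and 5 double mutants in which daf-2(e1370) is combined with daf-16(mu86), daf-16(mg54), daf-16(tm5030), daf-16(tm5032) or daf-16(tm6659). Worm insulin-like hormones act through the receptor DAF-2, whose activity e1370 reduces, and the FoxO transcription factor DAF-16 works downstream of it. According to the labels mu86 is a null, mg54 hits daf-16a and daf-16f, the independent mutations tm5030 and tm5032 hit daf-16a, and tm6659 hits daf-16f. Below, mu86, mg54, tm5030, tm5032 and tm6659 stand for these double mutants and daf-2 for the single mutant. Eggs were laid over 4 h, and the animals grew at 15 °C to the L4 larval stage and then spent 20 to 24 h at 20 °C, which makes them day 1 adults. The labels do not say whether the 3 libraries of a genotype came from separate cultures, so p-values measure the spread between these libraries, which may be technical.

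Neuropeptides are short signalling peptides cut from larger precursor proteins, packed into dense-core vesicles and released to act on receptors, most of which are coupled to G proteins. The flp genes encode FMRFamide-like peptides, made mainly in neurons, and the nlp genes encode the other neuropeptide-like precursors that are not insulin-like. A subgroup of nlp genes, among them nlp-29 and nlp-31, encodes small glycine-rich and tyrosine-rich peptides of the YGGYG type. These are made in the hypodermis (the skin of the worm), and nlp-29 is known for its induction by fungal infection and wounding.

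The libraries held 30384772 to 47170645 fragments (read pairs), but most members were counted from few of them. After the filter on low counts, 66 members were tested, 30 flp and 36 nlp loci. The other 8 were flp-23, nlp-22, nlp-23, nlp-30, nlp-32, nlp-34, nlp-39 and nlp-46, of which flp-23, nlp-22 and nlp-34 had no fragment in any library. Over the tested members the median was 71.5 fragments in a library, and 26 of them stayed under 100 fragments in every library. The median standard error (SE) of a log2 fold change was 0.50 for members and 0.26 for all loci tested in daf-2 against N2, so that smaller differences could be detected for a typical locus than for a typical neuropeptide. Since whole animals were used, fewer cells of a type and less RNA per cell cannot be told apart.

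Some loci do not report on 1 neuropeptide gene alone. The nlp-12 gene lies in a locus with C53H9.2, egl-30, emr-1, rpl-27 and tag-96, flp-22 is joined with mrt-1, and nlp-19 is joined with pbo-4. The genes nlp-27, nlp-28 and nlp-29 form 1 locus. The names flp-15 and nlp-33 each appear on 2 loci that can divide the same fragments, and 20 member loci overlap another coding gene in the annotation. The library kit named in the labels does not mark strand, so fragments of overlapping genes cannot be assigned by strand.

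Levels were compared between loci with FPKM, deposited values that divide fragments by transcript length and a library factor. A mean of at least 10 FPKM over the 21 libraries was found for 23 member loci, and 8 had a mean under 1. The highest value, 3517 FPKM (range 2172 to 6429), belonged to the nlp-12 locus, which also holds the ribosomal protein gene rpl-27. Next came the locus of nlp-27, nlp-28 and nlp-29 at 600 FPKM (436 to 860). It was followed by nlp-36 at 497 FPKM (383 to 681), nlp-24 at 343 FPKM (216 to 523) and nlp-40 at 284 FPKM (204 to 507). The levels of nlp-36 and nlp-24 carry a limit, since nlp-36 (chromosome III, 9488731 to 9489186) overlaps dars-1 and nlp-24 (V, 11616376 to 11616828) overlaps the globin gene glb-15. The nlp-40 gene, in contrast to most members, encodes a peptide of the intestine. Its range over libraries overlapped the range of nlp-24.

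The remaining members of the 10 highest were nlp-33 (95.9 FPKM at XLOC_024412 and 49.1 at XLOC_027439), flp-28 and nlp-26 (83.9 FPKM each) and nlp-31 (46.4 FPKM). Their ranges overlapped one another, with 40.8 to 178, 22.7 to 93.7, 55.6 to 121, 27.1 to 202 and 27 to 78.1 FPKM in the same order, so their rank is not resolved. Of the 10, 6 are YGGYG-type loci and 1 is an flp gene. Medians were taken without the 3 loci that hold other coding genes. The 7 tested YGGYG-type loci had a median of 83.9 FPKM (nlp-25 at 5.67 to nlp-27/nlp-28/nlp-29 at 600). For 29 flp loci it was 4.84 FPKM (flp-3 at 1.24 to flp-28 at 83.9), and for 27 other nlp loci 4.70 FPKM (nlp-2 at 0.894 to nlp-36 at 497). The untested loci, among them nlp-30, nlp-32 and nlp-34 of the YGGYG type, are not in these medians, and nlp-33 enters with both of its loci.

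**Figure D1:**
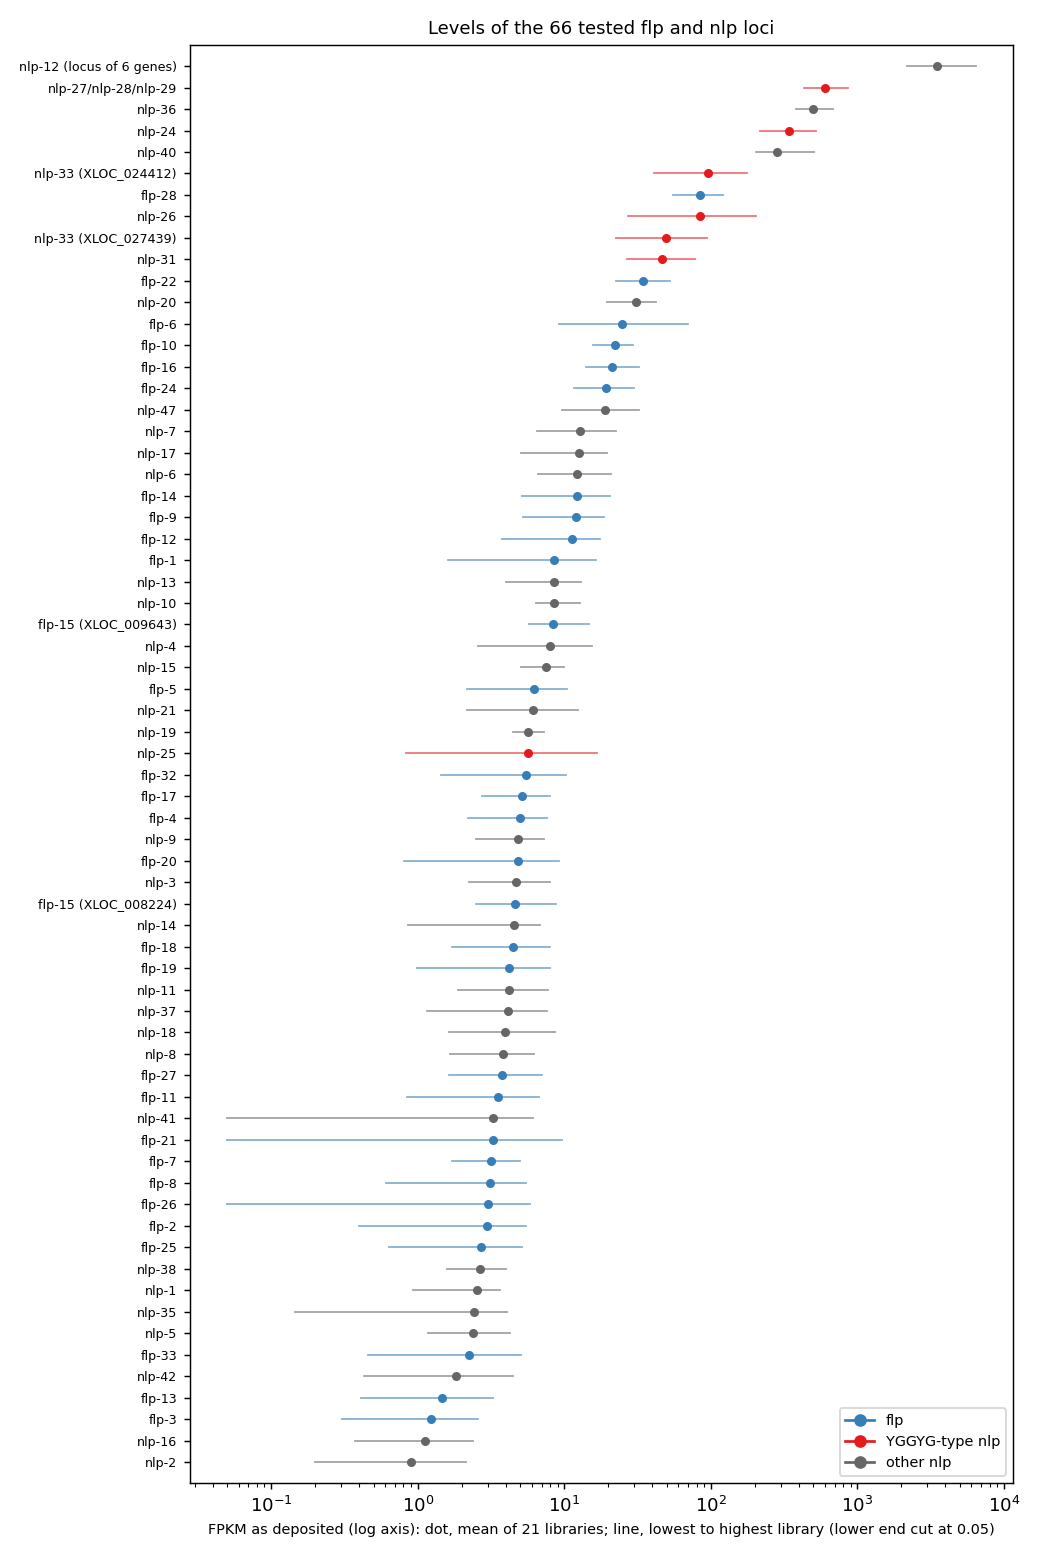
Mean FPKM of the 66 tested member loci over the 21 libraries, on a log axis, with lines from the lowest to the highest library (shortened at 0.05) and colours for flp, YGGYG-type nlp and other nlp loci. Of the 7 YGGYG-type loci, 6 have at least 10 FPKM, with nlp-27/nlp-28/nlp-29 at 600, and nlp-25 lies at 5.67. The flp loci have a median of 4.84.

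The comparison of daf-2 with N2 asks which neuropeptide transcripts differ when insulin/IGF-1-like signalling is reduced. Members are called changed at a Benjamini-Hochberg adjusted p under 0.05 in edgeR's quasi-likelihood test over all 12091 loci tested. Called higher in daf-2 were nlp-40, flp-10, nlp-20, the YGGYG-type locus nlp-27/nlp-28/nlp-29 and 1 of the 2 flp-15 loci. The locus that holds nlp-12 was called lower. These 6 of 66 members stand against 16.7% of all loci called in this comparison. DESeq2 called 6 higher and 1 lower, against 22.3% of all loci, with nlp-31 and nlp-35 in place of the flp-15 locus. With RLE scaling the split of 5 higher and 1 lower became 2 higher and 1 lower. On the deposited FPKM with 1 or 0.1 added, none of these 5 was called higher. There nlp-35 was the only member called higher, and the nlp-12 locus, flp-17, nlp-24 and flp-32 were called lower. With 0.1 added, nlp-26 was called lower too. Of all loci, 9.11% and 9.30% were called in these fits. The total of 6 fell to 1 without N2 library 2, to 2 without N2 library 1, daf-2 library 1 or 3, mg54 library 1, tm5030 library 1 or tm6659 library 3, and to 3 without mu86 library 2, tm5032 library 1 or tm6659 library 1 or 2. Without regard to the test, 54 of 66 members had a positive log2 fold change with a median of 0.62, against 55.2% of all loci with a median of 0.08.

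**Figure D2:**
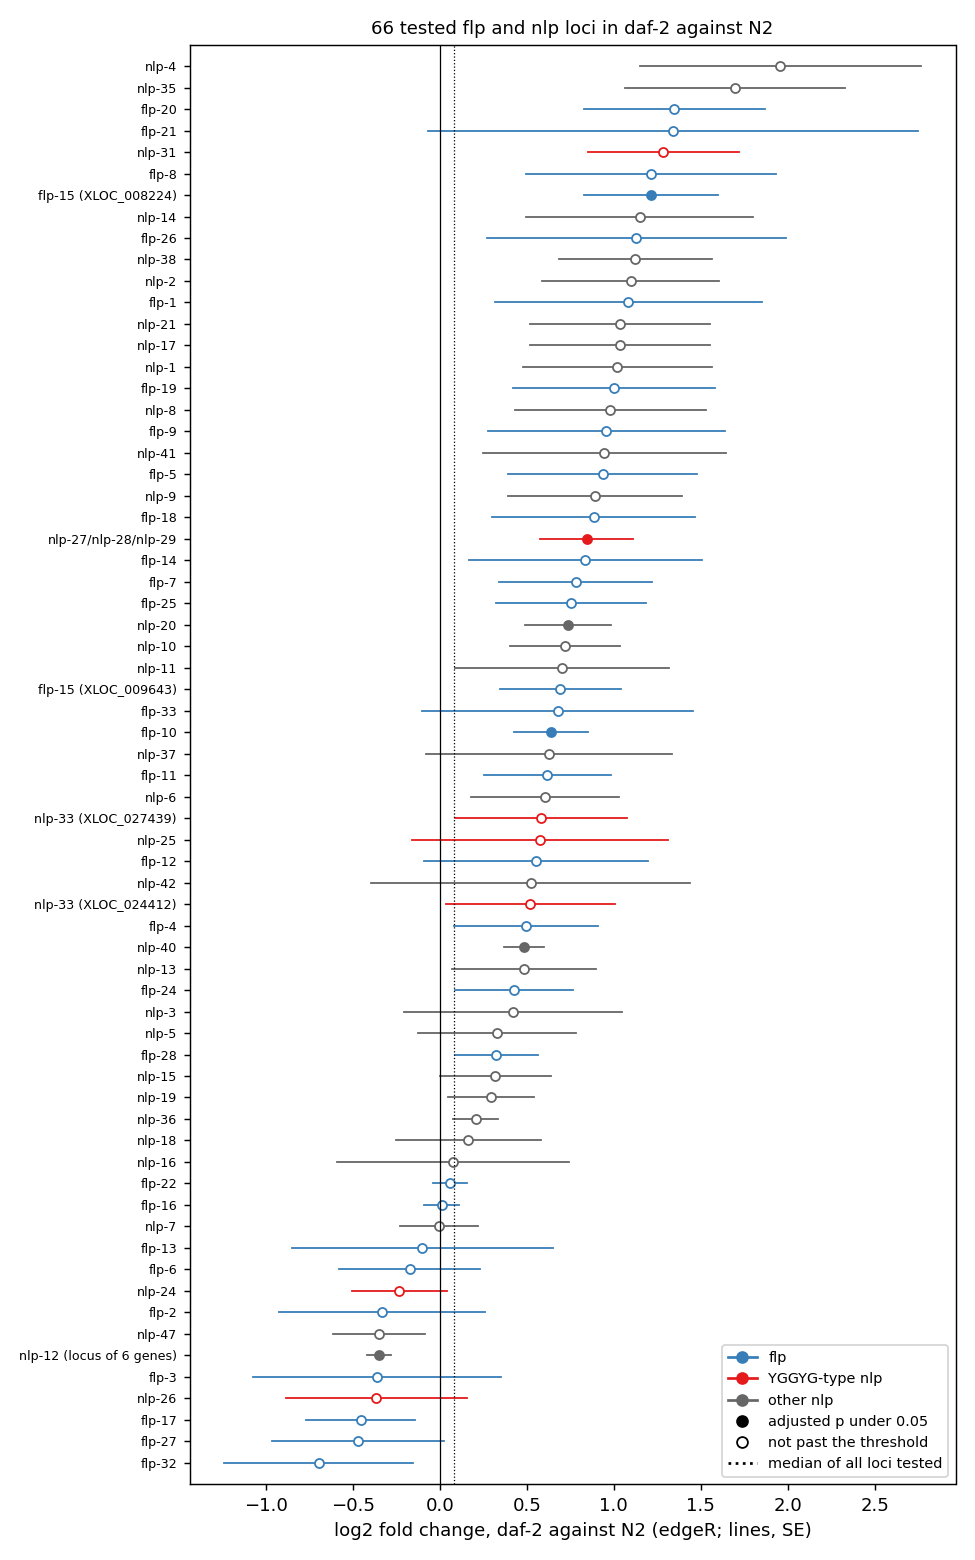
Log2 fold change of each of the 66 tested members in daf-2 against N2, with lines of 1 SE, filled points for adjusted p under 0.05 and a dotted line at the median of all loci (0.08). Most points lie right of 0 with wide lines, and the filled points include nlp-40 at 0.49 and nlp-27/nlp-28/nlp-29 at 0.84.

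The intestinal peptide gene nlp-40 (chromosome I, 11495 to 16837, WBcel235) is known for timing the expulsion step of the defecation cycle through the receptor AEX-2. Its levels were 109, 98.6 and 120 CPM (counts-per-million with TMM scaling) in the 3 N2 libraries and 139, 170 and 150 CPM in the daf-2 libraries. Every daf-2 library lay above every N2 library. The log2 fold change was 0.49 ± 0.11 (SE, adjusted p = 0.00709 by edgeR), although with the deposited FPKM values it was -0.13, where the median of all loci also moved, to -0.37 with 1 added. The call was lost when N2 library 1, N2 library 2 or daf-2 library 2 was left out (adjusted p up to 0.0835). The daf-16 double mutants covered the space between, with 113, 117 and 130 CPM in mu86 and 124, 126 and 145 CPM in mg54. In mu86 all 3 libraries lay below every daf-2 library, at a log2 fold change of -0.35 ± 0.11 that missed the threshold (adjusted p = 0.0641 by edgeR). DESeq2 called nlp-40 lower there, and so did edgeR without tm5032 library 2. In the DESeq2 fit 12.8% of all loci were called in either direction, with 865 of 12091 loci lower. In tm5030, tm5032 and tm6659 the levels were 148 ± 3.80, 152 ± 25.1 and 141 ± 14.7 CPM (SD, n = 3), and the log2 fold changes against daf-2 were -0.05, 0.00 and -0.12, each with an SE of 0.11. The intestinal marker ges-1 also rose in daf-2 (20.8 ± 2.00 to 72.3 ± 3.02 CPM), whereas the other 3 intestine markers tested were not called, and the part of intestinal RNA content in the nlp-40 result was not tested.

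Among the flp genes, flp-10 (IV, 7868907 to 7870081), known for a peptide that slows egg laying through the receptor EGL-6, had 8.66, 7.69 and 9.18 CPM in the N2 libraries and 15.1, 11.8 and 12.9 CPM in those of daf-2. The groups did not overlap. The log2 fold change was 0.64 ± 0.21 (adjusted p = 0.0497 by edgeR), just inside the threshold, and 19 of 21 fits that each left out 1 library lost the call (adjusted p 0.0245 to 0.249). Of the 21 fits, the call held in those without mu86 library 3 or mg54 library 2. Over all 31 alternative fits the log2 fold change of flp-10 ran from 0.02 to 0.66. A further gene whose peptides act through EGL-6, flp-17, had means of 2.98 ± 0.655 CPM (N2) and 2.18 ± 0.404 CPM (daf-2) (-0.46 ± 0.31, adjusted p = 0.309 by edgeR). On FPKM with 1 or 0.1 added, flp-17 was called lower in daf-2. The flp-10 means of the double mutants ran from 11.5 CPM in mu86 to 14.5 CPM in tm6659, with no call against daf-2.

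One flp-15 locus (XLOC_008224) rested on few fragments, 7 to 40 in a library. It was at 0.306, 0.318 and 0.311 CPM in the N2 libraries and at 0.840, 0.698 and 0.673 CPM in daf-2, without overlap (log2 fold change 1.21 ± 0.38, adjusted p = 0.0389 by edgeR). The other flp-15 locus (XLOC_009643) had 0.459, 0.382 and 0.648 CPM in the N2 libraries and 1.07, 0.481 and 0.834 CPM in those of daf-2, which overlap (0.69 ± 0.35, adjusted p = 0.179). With the fragments of both loci summed, the change was 0.92 ± 0.29 (adjusted p = 0.0379). The flp-15 peptides are known ligands of the receptor NPR-3, and the gene lies on chromosome III, 13663400 to 13667839. Leaving out 1 library ended the call of XLOC_008224 in 10 of 21 fits (adjusted p 0.0303 to 0.145), among them those without any 1 of the N2 or daf-2 libraries. The call was also lost with RLE scaling, without a filter, with DESeq2, on FPKM with 1 or 0.1 added and without the libraries numbered 2. It held in 14 of 30 alternative fits.

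The nlp-20 gene (IV, 7642054 to 7643071) had 6.82, 4.04 and 5.63 CPM in the N2 libraries and 11.2, 6.32 and 9.94 CPM in those of daf-2. Here the groups overlapped, since daf-2 library 2 lay below N2 library 1. The log2 fold change was 0.74 ± 0.24 (adjusted p = 0.0486 by edgeR), and 17 of 21 fits without 1 library lost the call (adjusted p 0.0219 to 0.267). It held without N2 library 1, daf-2 library 2, mu86 library 3 or tm5030 library 3. Over all 31 alternative fits the log2 fold change of nlp-20 ran from 0.13 to 0.87. In all 5 double mutants every library held at least 8.51 CPM, above all 3 N2 libraries. Their means ran from 9.63 ± 0.274 CPM in tm6659 to 11.3 ± 1.60 CPM in tm5032.

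The nlp-12 locus (the gene itself at I, 1843384 to 1843959) had 1789, 1728 and 1679 CPM in the N2 libraries and 1300, 1353 and 1427 CPM in those of daf-2. All N2 libraries lay above all daf-2 libraries, and the change of -0.35 ± 0.07 (adjusted p = 0.00167 by edgeR) was called in all 21 fits without 1 library and under the 10 other settings. The nlp-12 gene encodes a cholecystokinin-like peptide of the stretch-sensing neuron DVA. With 6 genes in the locus, the decrease cannot be assigned to nlp-12.

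The YGGYG-type locus nlp-27/nlp-28/nlp-29 (V, 3984425 to 3989770) had 45.2, 33.3 and 56.5 CPM in the N2 libraries and 87.9, 57.1 and 97.3 CPM in those of daf-2. The lowest daf-2 library stood just above the highest N2 library, at a log2 fold change of 0.84 ± 0.27 (adjusted p = 0.0388 by edgeR, 0.0234 to 0.195 with 1 library left out, lost in 10 of 21 fits, among them those without N2 library 1 or 2 or daf-2 library 1 or 3). The double mutants held 43.9, 54 and 79.3 CPM in mu86, 53.8, 49.6 and 76.9 in mg54, 65.0, 55.8 and 93 in tm5030, 66.9, 74.3 and 87.8 in tm5032, and 72.8, 85.4 and 100.4 in tm6659. Each of these sets overlapped the daf-2 libraries, and no change against daf-2 was called without the replicate number as a block. Within each library number, mu86 and mg54 were both below daf-2. With the block, in a comparison whose numbers were taken as paired, mg54 was called lower (-0.43 ± 0.14, adjusted p = 0.0464 by edgeR). Library 3 was the highest in each of the 7 genotypes at this locus.

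Close by on the chromosome, nlp-31 (V, 3980055 to 3980622) had 1.42, 1.18 and 1.84 CPM in the N2 libraries and 5.55, 1.96 and 3.31 CPM in those of daf-2. The groups did not overlap, and the log2 fold change of 1.28 ± 0.44 lay just outside the threshold (adjusted p = 0.0535 by edgeR). DESeq2 called it, as it did 22.3% of all loci in this comparison. Of the other YGGYG-type loci, nlp-33 had changes of 0.52 ± 0.49 and 0.58 ± 0.49 at its 2 loci, nlp-25 had 0.57 ± 0.74, nlp-24 had -0.23 ± 0.27 and nlp-26 had -0.37 ± 0.52, none called by edgeR. On FPKM, nlp-24 was called lower with 1 or 0.1 added, and nlp-26 with 0.1 added. In all, 5 of 7 tested YGGYG-type loci were positive with a median of 0.57, and 1 was called.

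Caenacins are a related family of small antimicrobial-type peptides encoded by the cnc genes, of which 6 of 11 loci were tested. In daf-2 against N2, 3 of the 6 were called higher, against 10.9% of all loci, and 0 were called lower. Their changes ran from -1.35 to 1.78 with a median of 1.31, 4 positive and 2 negative. The cnc-8 gene went from 5.53 ± 1.72 to 14.0 ± 5.24 CPM (log2 fold change 1.34 ± 0.43, adjusted p = 0.0407 by edgeR). The cnc-10 gene went from 0.604 ± 0.115 to 1.49 ± 0.489 CPM (1.29 ± 0.35, adjusted p = 0.0168) and cnc-4 from 0.132 ± 0.0672 to 0.454 ± 0.142 CPM (1.78 ± 0.48, adjusted p = 0.0174). With means of 0.204 CPM in mu86, 0.244 in mg54 and 0.511 in tm5030, cnc-4 lay near the floor. The filter asks for enough counts in only as many libraries as a genotype has. Groups where cnc-4 is high can thus carry it into the test, so its call adds no independent support to the count of 3. Of 8 hypodermis marker loci tested none was called in daf-2 against N2, and their median was -0.19 (-1.23 to 0.86, 3 positive). Their summed level was 1316 to 2422 CPM (N2) and 1770 to 2957 CPM (daf-2). Some of these loci join several genes, such as bli-1 with col-39, col-79 and col-80. The part of hypodermal RNA content in the YGGYG-type and caenacin values was not tested.

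Unadjusted p-values under 0.05 were found for 13 of 66 members, including the 6 called, against 31.5% of all loci. Besides nlp-31, those not past the adjusted threshold were nlp-4, nlp-35, flp-20, nlp-38, nlp-2 and nlp-10, which are named because of their values. In nlp-35 the levels were 0.537, 0.110 and 0.862 CPM in the N2 libraries and 2.18, 1.11 and 1.63 CPM in those of daf-2, and in nlp-4 they were 0.634, 0.509 and 1.11 against 3.73, 1.44 and 3.65 CPM. Neither gene overlapped between the groups. The log2 fold changes were 1.70 ± 0.63 (adjusted p = 0.079 by edgeR) and 1.96 ± 0.81 (adjusted p = 0.11). DESeq2 called nlp-35 higher, in a fit that called 22.3% of all loci. The nlp-35 gene overlaps C33A12.19 in the annotation, so its values can hold fragments of that gene. Counting all members without regard to p, 10 of 66 lay higher in every daf-2 library than in every N2 library, against 21.6% of all loci. They were nlp-40, nlp-38, nlp-4, flp-25, flp-15 (XLOC_008224), flp-10, nlp-35, nlp-31, nlp-27/nlp-28/nlp-29 and nlp-19. Lower without overlap were 2 of 66, the nlp-12 locus and nlp-47, against 17.3% of all loci. The 59 tested members that the edgeR model without a block called in no comparison ran from -0.70 for flp-32 to 1.96 for nlp-4 in daf-2 against N2, 49 of them positive.

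Peptides with known roles in sleep, feeding and egg laying were among those not called in daf-2 against N2. The flp-18 gene, whose peptides act on NPR-1 and related receptors, had 1.07, 0.922 and 3.09 CPM in the N2 libraries and 3.78, 1.83 and 3.77 CPM in those of daf-2 (0.88 ± 0.59, adjusted p = 0.291 by edgeR). The flp-13 gene, whose peptides act in stress-induced sleep from the ALA neuron, had 0.654, 0.351 and 2.15 CPM in the N2 libraries and 1.23, 0.175 and 1.54 CPM in those of daf-2 (-0.10 ± 0.75, adjusted p = 0.933). Both genes overlapped between the groups, and both were lowest in library 2 of each. The nlp-3 gene, which acts with serotonin in the egg-laying neuron HSN, had means of 0.348 ± 0.243 CPM (N2) and 0.469 ± 0.144 CPM (daf-2) (0.42 ± 0.63, adjusted p = 0.654). The 95% interval of the flp-13 change, -1.57 to 1.37 on the log2 scale, shows how little these counts limit a difference.

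**Figure D3:**
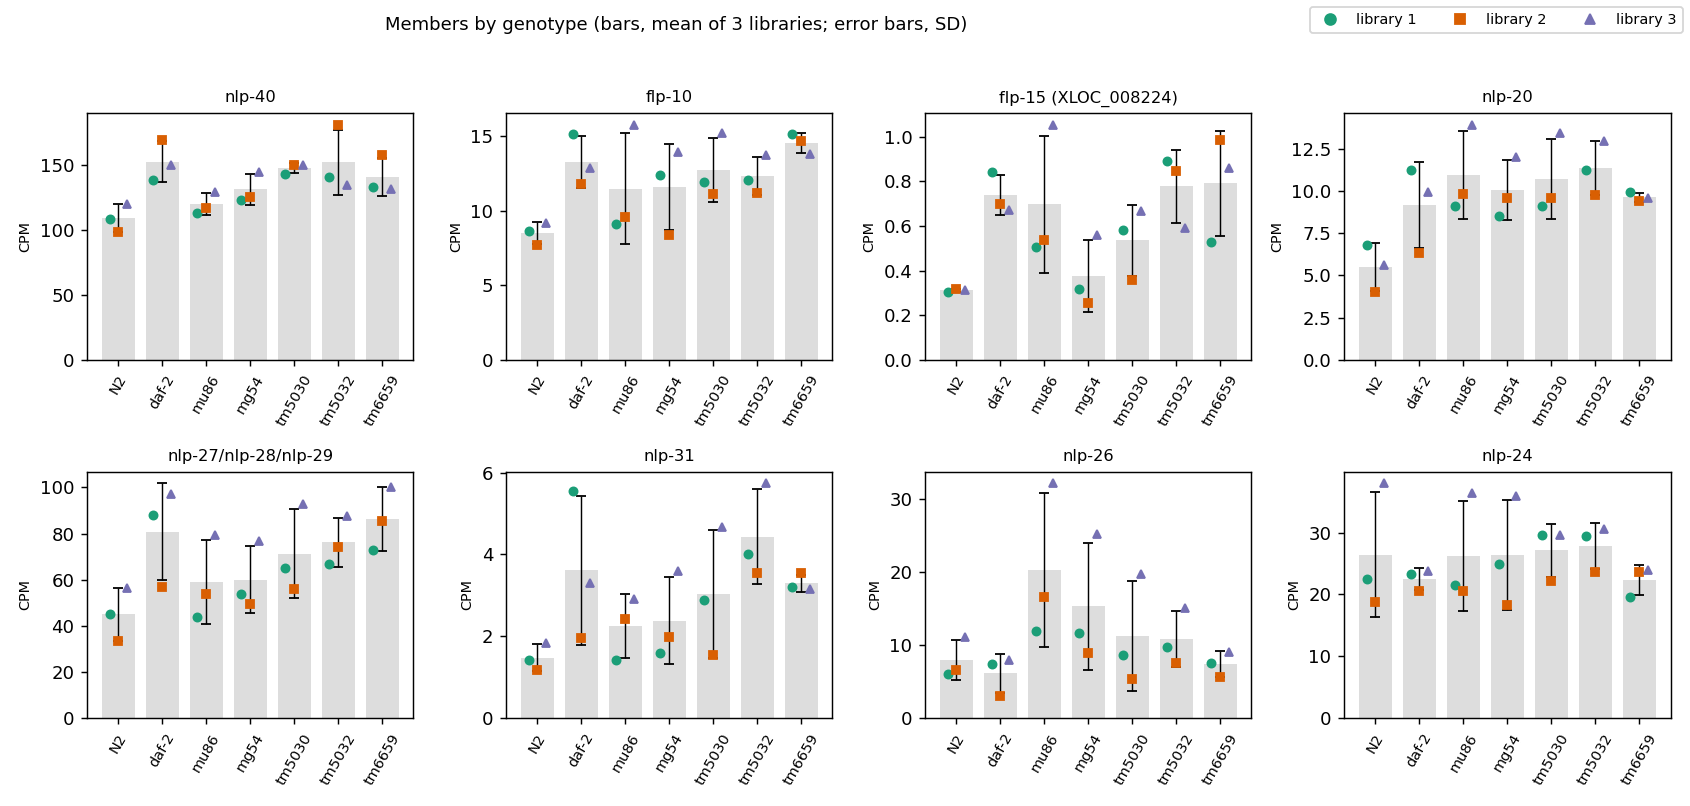
CPM in each of the 21 libraries for 6 members called in at least 1 comparison, and for nlp-31 and nlp-24, with points marked by library number, bars for the mean of 3 libraries from 0, and error bars of 1 SD. For nlp-40 the daf-2 points (139 to 170 CPM) lie above all N2 points (98.6 to 120 CPM), while nlp-26 is highest in the mu86 libraries (12.0 to 32.1 CPM).

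Members varied together with the library number within most genotypes. Over the 63 tested loci without other coding genes, the mean log2 CPM was 0.30, -0.18 and 0.99 in N2 libraries 1, 2 and 3, and 1.34, 0.48 and 1.11 in the daf-2 libraries. Library 2 was the lowest in both, and the highest N2 library stood above the lowest daf-2 library. In mu86 the means were 0.80, 0.91 and 1.54, in mg54 1.03, 0.44 and 1.66, in tm5030 1.05, 0.68 and 1.67, and in tm5032 1.21, 0.65 and 1.56. In contrast, tm6659 had 1.13, 1.08 and 1.12, an SD of 0.026 over its libraries against 0.59 in N2.

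Counted by member, library 2 was the lowest of its genotype for 54 of 66 members in N2, 52 in daf-2, 51 in mg54, 50 in tm5030 and 49 in tm5032, but for 22 in mu86 and 27 in tm6659. Among all loci tested the shares ran from 19.4% in mu86 to 46.2% in mg54. Library 3 was the highest for 54 members in N2, 58 in mu86, 59 in mg54, 58 in tm5030 and 50 in tm5032, for 20 in daf-2 and for 23 in tm6659, where the shares of all loci ran from 32.5% in daf-2 to 47.3% in mu86. The median member differed between libraries 3 and 2 by 1.07 on the log2 scale in N2 and 1.15 in mg54, which is more than its difference of 0.62 between daf-2 and N2. The labels give no day, culture or lane for a library number.

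**Figure D4:**
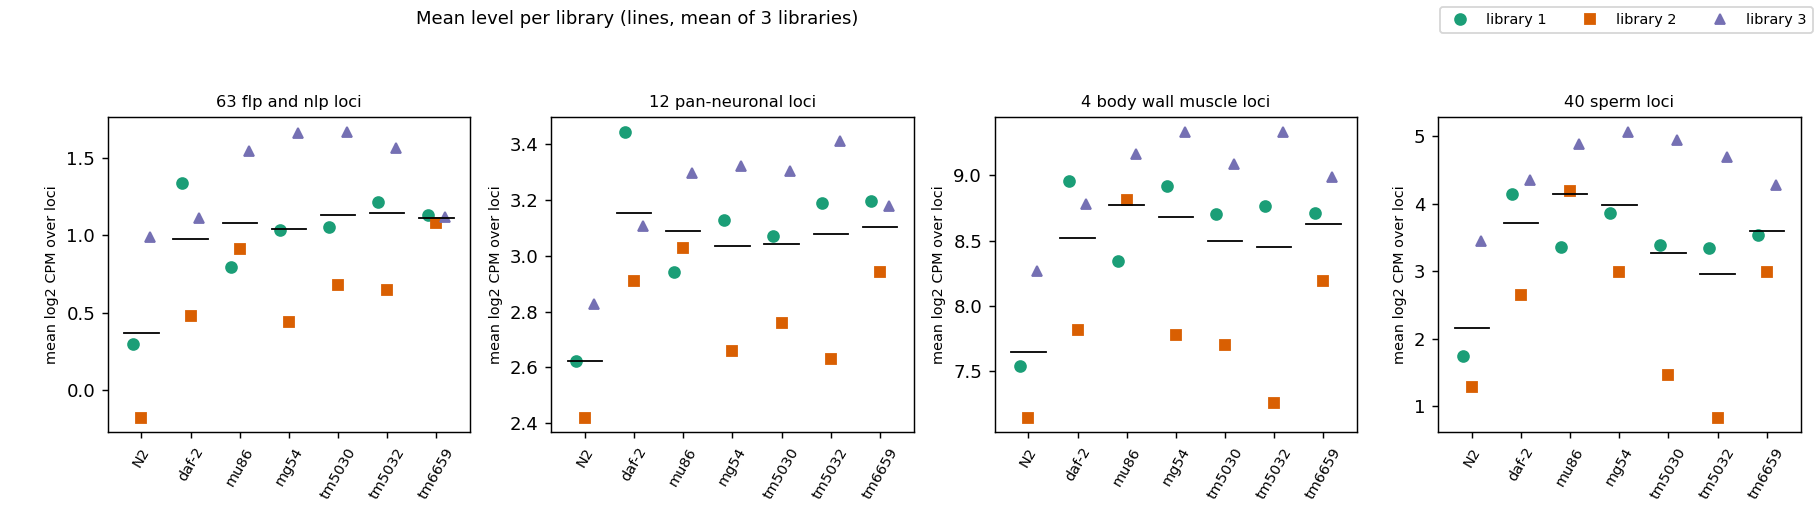
Mean log2 CPM in each library, by genotype and library number, of 63 tested flp and nlp loci without other coding genes and of pan-neuronal, body wall muscle and sperm markers, with lines at the mean of 3 libraries. For the flp and nlp loci, N2 has the lowest mean (0.37) and a wide spread (-0.18 to 0.99), and the tm6659 libraries lie together (1.08 to 1.13).

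Within library numbers, daf-2 exceeded N2 for 58 of 66 members among libraries numbered 1, for 56 among those numbered 2 and for 43 among those numbered 3, against 54.1%, 53.9% and 55.1% of all loci, with median log2 differences of 0.98, 0.62 and 0.15. The direction was thus shared by the 3 numbers and the size was not. With all libraries numbered 2 left out, an alternative chosen after seeing this pattern, the nlp-12 locus was the only member called in daf-2 against N2, and nlp-40 had a log2 fold change of 0.31 (adjusted p = 0.0713 by edgeR).

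Marker genes of other cell types and stages were measured in the same comparison, and some of them were called. Pan-neuronal markers, 12 tested, had a median log2 fold change of 0.61 with 9 positive, and unc-13 was called higher while unc-18 was called lower. Their mean log2 CPM was 2.62, 2.42 and 2.83 in N2 and 3.44, 2.91 and 3.11 in daf-2, also lowest in library 2, while their summed level was 350 to 375 CPM (N2) and 353 to 403 CPM (daf-2). All 40 tested sperm loci were positive, with a median of 1.5 and 1 called. The summed level of the sperm loci was 357 to 993 CPM (N2) and 746 to 1725 CPM (daf-2). The called locus joins msp-31 with ZK546.20 and aagr-2, so neither its call nor its part of the sum can be assigned to msp-31. Its means were 237 CPM (N2) and 348 CPM (daf-2). The 4 body wall muscle markers had a median of 0.84 and the 9 oocyte markers a median of -0.29, none called. Of 4 larval seam and moult loci tested, qua-1 was called lower (-1.66 ± 0.46, adjusted p = 0.0182 by edgeR). From the same list, nas-37 was called higher (0.46 ± 0.14, adjusted p = 0.0356). Of 3 embryo loci tested, the locus that joins nhr-68 with nhr-101 and srx-87 was called higher (0.61 ± 0.12, adjusted p = 0.00246). The part of these tissues in the neuropeptide values was not tested.

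The next question is which members depend on daf-16 when daf-2 signalling is low. In mu86 against daf-2, nlp-26 was the 1 member called, of 66, against 10.3% of all loci. The nlp-26 gene (V, 19613461 to 19614534) encodes a YGGYG-type peptide and overlaps Y43F8C.3 in the annotation. Its levels were 7.37, 3.03 and 7.99 CPM in daf-2 and 12.0, 16.6 and 32.1 CPM in mu86, with no overlap. The log2 fold change was 1.72 ± 0.53 (adjusted p = 0.0484 by edgeR), with 1.25 to 2.00 and an adjusted p of 0.0235 to 0.211 when 1 library was left out. The call was lost in 11 of those 21 fits, among them those without N2 library 1 or 2, any 1 daf-2 library, or mu86 library 2 or 3.

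The other genotypes placed nlp-26 along a range. N2 held 6.11, 6.57 and 11.1 CPM, which overlaps daf-2, and mg54 held 11.6, 8.95 and 25.2 CPM, all above daf-2 (1.31 ± 0.52, adjusted p = 0.149 by edgeR). The tm5030 libraries had 8.65, 5.37 and 19.7 CPM, those of tm5032 9.76, 7.58 and 15.1 CPM, and those of tm6659 7.55, 5.57 and 9.04 CPM. These 3 genotypes overlapped daf-2. The group means ran in the order daf-2, tm6659, N2, tm5032, tm5030, mg54 and mu86, and each neighbour in this order overlapped the next.

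Over all members, the median log2 fold change in mu86 against daf-2 was 0.13 with 39 of 66 positive, against -0.01 and 49.2% for all loci. Every mu86 library exceeded every daf-2 library for 5 members (the nlp-12 locus, flp-4, nlp-47, nlp-26 and flp-32), against 12.5% of all loci. Every mu86 library was lower for nlp-40, flp-22 and flp-28, against 15.2% of all loci. The direction differed between library numbers, since mu86 exceeded daf-2 for 12 of 66 members among libraries numbered 1, 46 among those numbered 2 and 54 among those numbered 3, against 46.1%, 52.8% and 49% of all loci.

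In mg54 against daf-2, 0 members were called by edgeR or DESeq2, against 9.35% and 11.9% of all loci, and 4 had an unadjusted p under 0.05, against 20.2%. A single member was called without daf-2 library 3, mg54 library 1, tm5032 library 2, tm6659 library 1 or tm6659 library 3 (the nlp-12 locus each time) and without mg54 library 3 (flp-28). Library numbers paired the samples in this comparison. With the replicate number as a block, 5 members were called, 2 higher and 3 lower, against 19.0% of all loci. The higher ones were nlp-26 (1.24 ± 0.27, adjusted p = 0.00332 by edgeR) and the nlp-12 locus (0.19 ± 0.06, adjusted p = 0.0286). The lower ones were nlp-27/nlp-28/nlp-29, given above, flp-28 (-0.66 ± 0.22, adjusted p = 0.0429) and the flp-22/mrt-1 locus (-0.18 ± 0.06, adjusted p = 0.0358). For flp-28 (X, 10087314 to 10087966, overlapping W07E11.1) the levels were 4.94, 3.67 and 5.15 CPM in daf-2, 2.29, 2.45 and 4.04 CPM in mg54 and 3.02, 3.32 and 3.58 CPM in mu86. The mg54 libraries overlapped the daf-2 libraries, whereas within each number mg54 was the lower.

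Comparison of mu86 with N2 shows what differed from wild type when both genes were mutated. By edgeR 0 of 66 members were called, against 1.52% of all loci, while 17 had an unadjusted p under 0.05, against 28.2% of all loci. Without daf-2 library 2 or tm5030 library 3 nlp-20 was called, and without mu86 library 1 nlp-38. DESeq2 called nlp-38, flp-4, nlp-20 and nlp-19 higher and the nlp-12 locus lower, 5 of 66 against 6.87% of all loci in that fit. The numbers were taken as paired here too, and with the block 32 members were higher and 1, the nlp-12 locus, was lower. In that fit 48.2% of all loci were called in either direction, and 27.9% were called higher. Examples of the higher ones are flp-11, whose peptides act in the sleep neuron RIS (0.97 ± 0.18, adjusted p = 0.00286 by edgeR), flp-4 (1.33 ± 0.23, adjusted p = 0.002) and nlp-4 (1.85 ± 0.43, adjusted p = 0.00514).

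The flp-11 gene overlaps tmem-135 in the annotation, so its values can hold fragments of that gene. For flp-11 the levels were 2.12, 1.8 and 2.46 CPM (N2), 3.29, 2.32 and 4.21 CPM (daf-2) and 3.15, 3.79 and 5.99 CPM (mu86). The mu86 libraries lay above all N2 libraries, and the daf-2 libraries overlapped both. For flp-4 they were 0.831, 0.572 and 1.58 CPM (N2), 1.57, 1.02 and 1.63 CPM (daf-2) and 2.6, 1.8 and 2.76 CPM (mu86). Here too the mu86 libraries were the highest, and N2 and daf-2 overlapped. In all, 16 members were higher in every mu86 library than in every N2 library, against 22.3% of all loci, and 2 were lower, the nlp-12 locus and flp-6, against 18.9%. The median log2 fold change was 0.73 with 55 of 66 positive, against 0.13 and 56.3% for all loci, with medians of 0.72 over 29 flp loci, 0.60 over 7 YGGYG-type loci and 0.86 over 27 other nlp loci.

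The N2 libraries were the lowest of the 7 genotypes for many members. Within libraries numbered 1, N2 was the lowest for 45 of 66 members against 33.4% of all loci, within those numbered 2 for 42 against 25.4%, and within those numbered 3 for 35 against 34.1%. By group mean it was the lowest for 47 of 66 members and for 39.8% of all loci. These counts and the comparisons with N2 rest on the same 3 N2 libraries. The 40 sperm loci were also all positive in mu86 against N2, with a median of 2.02.

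The single-isoform mutants address whether daf-16a or daf-16f carries a dependence. Against daf-2, edgeR called 0 of 66 members in tm5030 (0.91% of all loci), 0 in tm5032 (1.04%) and 0 in tm6659 (0.174%), with 0, 1 and 1 members at an unadjusted p under 0.05 (7.89%, 7.96% and 3.38% of all loci) and 0 called by DESeq2. The median member moved by 0.11, 0.13 and 0.09 on the log2 scale, and all loci by -0.02, -0.02 and -0.03. The direct comparison of the mean of tm5030 and tm5032 with tm6659 called 0 members (2.44% of all loci), with 1 at an unadjusted p under 0.05 and 0 by DESeq2. These 3 comparisons with daf-2, and those of mu86 and mg54, share the daf-2 libraries.

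The precision of these comparisons differed by member. For nlp-40 the 95% interval of the difference between the daf-16a mutants and tm6659 was -0.10 to 0.29 on the log2 scale, and for nlp-27/nlp-28/nlp-29 it was -0.67 to 0.22. For nlp-26 it was -0.32 to 1.48, which leaves room for a difference of more than 2-fold. The lowest value in both the tm5032 and the isoform comparison, -2.11 ± 1.51 and -1.90 ± 1.11, belonged to flp-21, a gene for a ligand of NPR-1, which had no more than 16 fragments in any library and 0 in some. The nlp-33 locus XLOC_027439 had 13.9 ± 7.91 CPM in daf-2 and 31.2 ± 12.6 CPM in tm5032, an overlap of libraries at a log2 fold change of 1.17 ± 0.50 (adjusted p = 0.508 by edgeR).

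**Figure D5:**
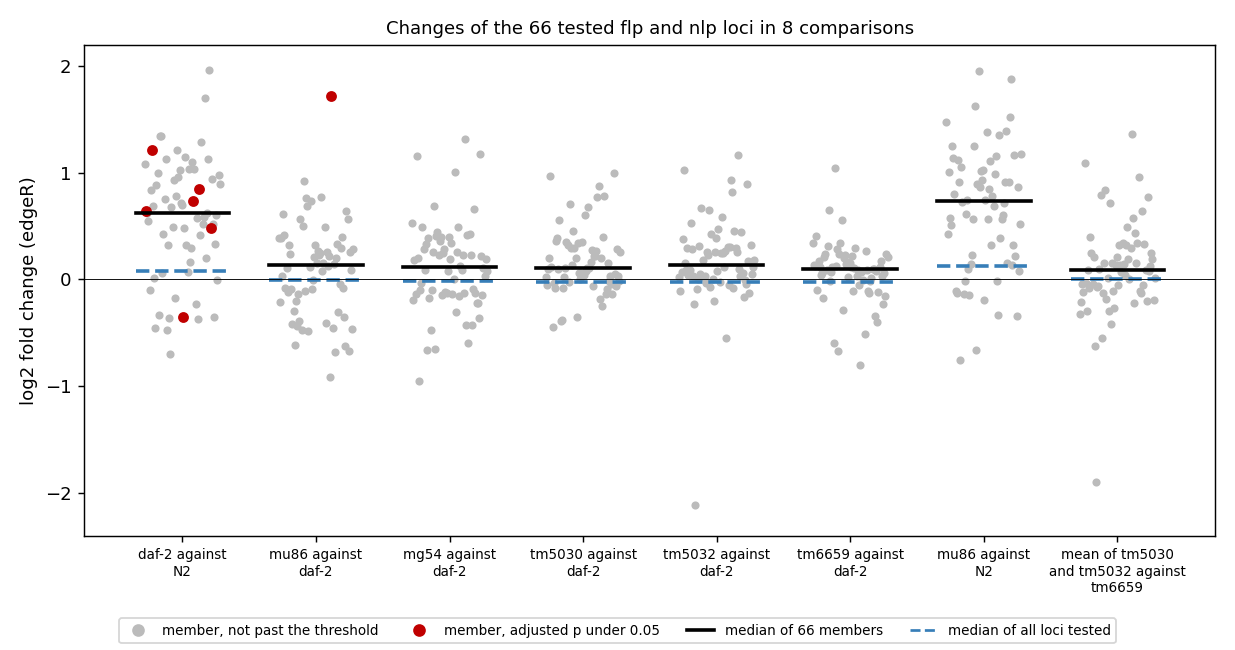
Log2 fold changes of the 66 tested members in each of the 8 comparisons, with members called by edgeR in red, the member median as a solid bar and the median of all loci as a dashed bar. The member medians are 0.62 and 0.73 in the comparisons with N2 and 0.09 to 0.13 in the others.

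The genes that process and release neuropeptides were followed for context. Of 10 loci with precursor-processing genes, all tested, 1 was called in daf-2 against N2. The aex-5 gene shares a locus with the muscle gene unc-54, which is also among the body wall muscle markers, so this locus does not report aex-5 alone. The called gene was kpc-1, a furin-like proprotein convertase, which rose from 14.3 ± 1.02 CPM in N2 to 21.7 ± 4.06 CPM in daf-2 (log2 fold change 0.60 ± 0.17, adjusted p = 0.0248 by edgeR). It fell to 12.3 ± 0.575 CPM in mu86 (-0.82 ± 0.17, adjusted p = 0.0047) and to 14.0 ± 1.57 CPM in mg54 (-0.63 ± 0.17, adjusted p = 0.0276). The median of the 10 loci, with aex-5/unc-54 among them, was 0.52 in daf-2 against N2. Of 8 dense-core vesicle loci, 2 were called higher in daf-2, among them tom-1, which encodes tomosyn, an inhibitor of vesicle priming. The tom-1 level went from 37.6 ± 1.28 CPM to 47.8 ± 2.83 CPM, and it was called lower than daf-2 at 36.5 ± 1.17 CPM in mu86 and at 37.4 ± 3.36 CPM in mg54 (-0.39 and -0.35). The other was cab-1, at 30.5 ± 5.99 and 53.1 ± 8.39 CPM (0.80 ± 0.27, adjusted p = 0.0497). The peptide precursor genes snet-1 and pdf-1, outside the families, had a median of 0.83 and were not called. The median of all loci in daf-2 against N2 was 0.08, and 16.7% of them were called.

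Of 88 loci with neuropeptide receptor genes, 71 were tested. Here 8 were called higher and 2 lower in daf-2 against N2, with a median of 0.28, against 16.7% of all loci called. The receptor gene frpr-5 rose from 2.1 ± 0.344 to 6.46 ± 1.79 CPM (log2 fold change 1.62 ± 0.22, adjusted p = 7.8e-05 by edgeR) and sprr-2 fell from 4.00 ± 0.135 to 1.52 ± 0.0996 CPM. In mu86 against daf-2, 3 were higher and 5 lower, against 10.3% of all loci called. In mg54 against daf-2, 2 were higher and 6 lower, against 9.35% of all loci called. Among those of mu86, frpr-5 was lower (3.16 ± 0.681 CPM, -1.03) and sprr-2 was higher (3.57 ± 0.439 CPM, 1.23). The npr-8 gene, at 1.89 ± 0.425 CPM in daf-2, was 0.597 ± 0.0495 CPM in mu86 and 1.84 ± 0.635 CPM in tm6659, and it was called lower in the comparison of the daf-16a mutants with tm6659 (-0.92, adjusted p = 0.0376). Of all loci, 2.44% were called in that comparison. With the block, where numbers were taken as paired, 3 receptors were called in it, npr-8 lower and sprr-2 and npr-17 higher, against 7.86% of all loci.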

How the data were processed

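Per the labels' protocols, RNA passed an integrity number of 8, and its poly(A) fraction was sequenced paired-end for 100 cycles with 4 libraries in a lane. Per the submitters' processing notes, the authors used CASAVA 1.8.2, TopHat2 2.0.9 and Cufflinks 2.1.1. For the genome build of these steps, nothing is stated: it is not given in the sources used here. Per locus, the authors deposited expected counts of fragments and FPKM values. Of the expected counts, 86.3% were whole within 1e-09. The number of per-sample columns left unused was 0. The 300 loci without a gene name, which held 1.06% to 1.54% of a library, and 3 entries that are not loci stayed out of the library sizes and tests. Positions come from Ensembl release 115 (WBcel235), which held 70 of the 74 member gene names; nlp-10 was matched in RefSeq, and nlp-37, nlp-38 and nlp-42 were not matched.

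Expected counts were rounded to whole numbers and fitted with edgeR 4.0.16 in R 4.3.3 (quasi-likelihood, TMM scaling, filterByExpr), with 1 term per genotype over all 21 libraries, in 8 comparisons, and 2-sided p-values were adjusted over the 12091 loci tested. The common biological coefficient of variation was 0.346. Log2 CPM used a prior count of 2. Counts as low as those of many members limit precision, and SEs cover the spread between libraries and not errors of assignment. Alternatives were RLE and upper-quartile scaling, no filter, a mean of at least 2 CPM, DESeq2 1.42.0, limma 3.58.1 on log2(FPKM + 1) and log2(FPKM + 0.1), the replicate block, each library left out, and, added after seeing the data, all libraries numbered 2 left out and loci of 1 gene summed. The edgeR fits, with and without the block, were tested for daf-2 against N2 on simulated counts that held no effect of library number. The DESeq2 and limma fits were not tested in this way.

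The labels number the libraries 1 to 3 in every genotype and do not say what a number marks. Samples were taken as paired where all 3 same-numbered pairs correlated above 0.1 in their deviations from the group means. This held in 6 comparisons (0.13 to 0.64 for mg54 against daf-2, 0.22 to 0.61 for mu86 against N2, and 0.17 to 0.75 over the other 4), and not in daf-2 against N2 or mu86 against daf-2.

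Named with values are members called in at least 1 comparison, the 10 with the highest mean FPKM, and up to 4 changed genes of a list with the smallest p. Other members are named as examples of levels, of counts or of values near a threshold, and were chosen after their values were seen. The members and gene lists were chosen with earlier results of these data known.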

Additional observations from a re-analysis of the deposited data

How the results depend on the processing

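In daf-2 against N2, 6 members were called. The count was 7 with DESeq2, against 22.3% of all loci. It was 3 with RLE scaling, upper-quartile scaling or a mean of at least 2 CPM, 2 without a filter and 1 without the libraries numbered 2. Without 1 library at a time the count ran from 1 to 6. Fewest, with 1, were left without N2 replicate 2. In mu86 against daf-2 (1 called) the count was 2 with upper-quartile scaling or DESeq2, 3 with FPKM and either pseudocount, 0 without a filter or without the libraries numbered 2, and 0 to 2 without 1 library. In mg54 against daf-2 (0 called) it was 1 with upper-quartile scaling, a mean of at least 2 CPM or FPKM with 1 added, 2 with 0.1 added, and 0 to 1 without 1 library; in mu86 against N2 (0 called) it was 5 with DESeq2 and 0 to 1 without 1 library. The other 4 comparisons had 0 in all settings run. On FPKM with 1 or 0.1 added, 5 and 6 members were called in daf-2 against N2, against 9.11% and 9.30% of all loci. Of these members, 4 and 5 were lower, and the only higher one was nlp-35. The nlp-40 change turned to -0.13 in both, and the all-locus median was -0.37 and -0.51; the cause was not tested.

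The replicate block gave 28 called members in daf-2 against N2 (44.1% of all loci) and 5 in mu86 against daf-2 (21.8%; nlp-26 and flp-4 higher, nlp-40, flp-22 and nlp-27/nlp-28/nlp-29 lower), where the numbers did not pair the samples (r -0.09, 0.53 and 0.41, and -0.32, 0.21 and 0.47 for numbers 1, 2 and 3). It gave 5 in mg54 against daf-2 and 33 in mu86 against N2, and changed no other count. Of 21 libraries, 18 correlated best with their own number. Depth limits flp-21, flp-15 and the other members under 100 fragments.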
